A study of Homo sapiens with 12 samples.

Results

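The inner mitochondrial membrane carries the respiratory chain, whose protein complexes pass electrons from NADH and succinate to oxygen and use the resulting proton gradient to make ATP. The 94 genes described here are its nuclear-encoded genes, taken from 64253 annotated genes by name: protein-coding genes on the primary chromosomes whose symbol begins NDUFA, NDUFB, NDUFC, NDUFS or NDUFV with a digit, UQCR, COX4 to COX8 or ATP5, or is SDHA, SDHB, SDHC, SDHD, CYC1 or CYCS. They were assigned to complex I (38 genes), complex II (5), complex III (11), cytochrome c (1), complex IV (19, with NDUFA4 and its relative NDUFA4L2 placed there) and complex V (20).

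The cells were JEKO-1, an established human mantle cell lymphoma line, cultured for 48 h. One group received DMSO, the solvent. A second group received choline salicylate (CS), a salicylate salt. The third received KPT-330, which inhibits the nuclear export receptor CRM1 (XPO1), and the fourth received both drugs. Each group had 3 poly(A)-selected libraries of bulk RNA. The labels give a range of concentrations for the whole study but not the dose used for these libraries. The labels do not state that the 3 libraries of a group were grown separately, and the p-values below then cover only differences from library to library, possibly technical ones. All 4 groups come from 1 cell line.

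Complex I oxidises NADH, complex II oxidises succinate as part of the tricarboxylic acid (TCA) cycle, and both pass electrons to ubiquinone. Complex III hands them on to cytochrome c, complex IV reduces oxygen, and complex V is the ATP synthase. All of complex II is encoded in the nucleus, while the mitochondrial genome supplies core subunits of the other complexes. Many promoters of the nuclear genes are known to be bound by NRF1, by the ETS-family factor GABP and by YY1, and coactivators of the PGC-1 family act on them.

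Library totals ran from 35325563 to 59490178 counts. B cell and mantle cell lymphoma markers were present at 5 CPM (TMM-scaled counts, relative to library size) or more in each library for 7 of 7 genes, with a summed level of 2163 to 2455 CPM in DMSO, 2470 to 2785 with CS, 2969 to 3012 with KPT-330 and 2967 to 3126 with both. No T cell, myeloid, epithelial, erythroid or fibroblast marker exceeded 2.85 CPM in any library. Libraries of 1 group differed in how their counts depended on the GC content of a gene. The slope of log2 counts per 10 points of GC was 0.09, -0.13 and -0.31 in the 3 DMSO libraries, and -0.23, -0.10 and 0.06 in the 3 CS libraries. In the KPT-330 libraries it was 0.20, 0.20 and 0.23, and with both drugs it was 0.13, 0.03 and -0.15. The biological coefficient of variation was 15.9% among DMSO libraries, 11.8% with CS, 2.88% with KPT-330 and 10.95% with both drugs. Each SE and p-value of the main test below uses 1 estimate of spread per gene from all 12 libraries. It therefore does not follow these differences in spread between groups. Whether the GC dependence was set by the treatments or by library preparation was not tested. Results that move with it are given below with and without a GC correction.

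Promoter sequences of 5 genes are shown first because their values mark the ends of the range described below: CYCS fell most with KPT-330, ATP5L fell most in complex V among the genes above 2 CPM in every library, NDUFS1 fell most in complex I with both drugs, and NDUFA13 and SDHA stood higher with KPT-330. Each is RefSeq sequence of GRCh38.p14, read 5′ to 3′ on the gene's own strand from 250 bases before to 30 bases after the annotated start. Capitals mark a match to the NRF1 consensus, which leaves 1 base free, or to the ETS motif CCGGAAG on either strand. The windows are chr7:25125231-25125510 (minus strand) for CYCS, chr11:118401356-118401635 (plus) for ATP5L, which RefSeq calls ATP5MG, chr2:206159415-206159694 (minus) for NDUFS1, chr19:19515975-19516254 (plus) for NDUFA13, and chr5:218070-218349 (plus) for SDHA.
CYCS: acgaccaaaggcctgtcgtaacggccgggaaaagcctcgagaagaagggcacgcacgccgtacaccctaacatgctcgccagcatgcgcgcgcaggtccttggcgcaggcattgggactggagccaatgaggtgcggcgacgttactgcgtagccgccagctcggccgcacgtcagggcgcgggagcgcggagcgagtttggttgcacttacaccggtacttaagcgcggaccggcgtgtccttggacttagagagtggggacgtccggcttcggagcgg
ATP5L: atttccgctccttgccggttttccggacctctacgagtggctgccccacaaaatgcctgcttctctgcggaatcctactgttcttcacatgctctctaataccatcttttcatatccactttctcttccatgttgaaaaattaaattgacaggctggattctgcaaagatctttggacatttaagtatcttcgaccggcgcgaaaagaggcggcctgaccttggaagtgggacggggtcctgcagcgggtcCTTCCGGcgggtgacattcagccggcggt
NDUFS1: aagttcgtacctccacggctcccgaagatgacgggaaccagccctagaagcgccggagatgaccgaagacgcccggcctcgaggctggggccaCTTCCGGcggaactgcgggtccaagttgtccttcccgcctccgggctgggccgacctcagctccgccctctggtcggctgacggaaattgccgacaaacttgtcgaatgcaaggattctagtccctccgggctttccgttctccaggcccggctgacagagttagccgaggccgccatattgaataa
NDUFA13: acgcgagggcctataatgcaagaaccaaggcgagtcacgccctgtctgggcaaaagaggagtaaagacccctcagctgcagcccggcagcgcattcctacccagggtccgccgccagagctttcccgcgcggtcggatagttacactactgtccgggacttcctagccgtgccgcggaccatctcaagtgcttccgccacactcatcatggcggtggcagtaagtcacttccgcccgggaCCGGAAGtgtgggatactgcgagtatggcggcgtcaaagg
SDHA: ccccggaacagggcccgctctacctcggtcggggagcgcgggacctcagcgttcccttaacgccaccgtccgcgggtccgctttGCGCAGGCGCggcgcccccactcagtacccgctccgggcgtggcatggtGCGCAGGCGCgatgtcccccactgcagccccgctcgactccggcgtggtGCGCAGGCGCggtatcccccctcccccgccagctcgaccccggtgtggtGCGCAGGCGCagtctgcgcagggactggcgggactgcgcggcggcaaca

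The SDHA window holds 4 NRF1 matches, which begin 166, 117, 68 and 19 bases before the start. The ATP5L, NDUFS1 and NDUFA13 windows hold 1 ETS match each, and the CYCS window holds neither string. RefSeq promoters were matched for 69 of the 94 genes. The NRF1 string was found in 23.2% of them, against 6.2% of all 27305 promoters in the same 280-base window. The ETS string was found in 27.5% against 10.3%, the YY1 string AAGATGGC in 11.6% against 2.53%, and the E-box CACGTG in 10.1% against 7.14%. Both strands were searched, and matches of different motifs may overlap. NRF1 matches stood in 21.2% of the 33 lower genes and 23.3% of the 30 genes not called, ETS matches in 30.3% and 26.7%, YY1 matches in 12.1% and 13.3%, and E-box matches in 6.06% and 16.7%. The complexes differed in their counts: the NRF1 string stood in 4 of 7 complex III promoters and 1 of 14 in complex IV, and the YY1 string in 0 of both. These shares were not tested. A match is a string in the window, not evidence of binding.

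The respiratory chain genes took a smaller share of all counts in each treated group than with DMSO. They held 1.54%, 1.503% and 1.49% of counts in the DMSO libraries and 1.37%, 1.37% and 1.38% with CS. With KPT-330 the shares were 1.26%, 1.25% and 1.26%, and with both drugs 1.19%, 1.17% and 1.17%. The 4 groups do not overlap, and the libraries with both drugs are the lowest. In bulk RNA, fewer transcripts per cell of these genes and more of other genes cannot be told apart.

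Levels between genes were compared per kilobase of annotated exon. The annotated length may differ from that of the transcript expressed here, so the order of genes depends on the annotation. It is 548 bases for NDUFS5 and 10908 for ATP5A1. In DMSO ATP5A1 had 1229 CPM but 113 CPM per kb, and NDUFS5 had 179 CPM. ATP5B, the catalytic β subunit of ATP synthase, was highest in DMSO at 927 ± 61.4 CPM per kb (SD, n = 3), followed by NDUFS5 at 327 ± 22.3, NDUFA1 at 250 ± 21.3 and CYCS at 248 ± 26.3. NDUFA1 and CYCS do not differ beyond their spread. Among the genes tested, the lowest were NDUFA4L2 at 0.72 ± 0.29 and the retrocopy ATP5L2 at 0.74 ± 0.15. Of the tissue-restricted isoforms, COX4I2, COX6A2, COX6B2 and COX8C had at most 3, 4, 1 and 5 reads in any library. COX7A1 and COX7B2 had 0 reads in all 12 libraries, which allows up to 3 reads or 0.05 to 0.08 CPM per library. These 6 complex IV genes were too low to test. The other 88 genes were tested, 78 of them ordinary subunit entries. The remaining 10 were 3 second gene identifiers that repeat a symbol (NDUFA7, SDHD and UQCR11), 2 readthrough genes, 3 retrocopies and 2 genes (ATP5S and ATP5SL) that share the ATP5 prefix but encode no subunit.

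KPT-330 lowered transcripts of cytochrome c, of the ATP synthase and of several subunits of each other complex. Of the 88 tested genes, 47 were lower and 3 higher at an adjusted p of 0.05 or less (edgeR quasi-likelihood test, Benjamini-Hochberg over 19460 genes), where 48.5% of all tested genes were called, 23.8% lower and 24.7% higher. The lower calls are 53.4% of the respiratory chain genes, and their median log2 fold change was -0.30, beside 0.04 over all tested genes. In 48 genes every KPT-330 library was below every DMSO library, and in 6 it was above, beside 27.4% and 30.3% of all tested genes. The 47 lower genes include 43 of the 78 ordinary subunit entries. Of the 47 lower calls, 37 kept their direction and their call in each of the 22 alternative analyses, as did 0 of the 3 higher calls.

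CYCS, which encodes the mobile carrier cytochrome c, had 983, 1121 and 1216 CPM with DMSO and 481, 466 and 466 with KPT-330. All KPT-330 libraries lay far below the lowest DMSO library and close to each other. The fall was 57.4%, a log2 fold change of -1.23 ± 0.08 (SE, n = 3 per group, adjusted p = 9.37e-08, edgeR, spread estimated from all 12 libraries). With the DMSO and KPT-330 libraries fitted alone, the adjusted p was 1.5e-05 (edgeR). CYCS has processed copies elsewhere in the genome, and how reads with several matches were counted is not given in the sources used here.

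In complex V, 15 of 20 genes were lower with KPT-330 and 0 were higher, with a median log2 fold change of -0.48. An unadjusted p under 0.05 for a higher level was reached by 0 of the 20 (edgeR), and DESeq2 also called 15. The median difference from the DMSO mean was -0.44, -0.47 and -0.46 in the 3 KPT-330 libraries, while the DMSO libraries lay at -0.01, 0.01 and 0.01. The pooled SD within groups was 0.02, so the shift was many times the spread between libraries.

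ATP5L, the membrane-sector g subunit, had 256, 250 and 232 CPM with DMSO and 138, 132 and 136 with KPT-330. The groups are well apart, with a log2 fold change of -0.86 ± 0.05 (adjusted p = 3.39e-08, edgeR). ATP5E, the ε subunit of the central stalk, had 394, 396 and 379 CPM with DMSO and 213, 229 and 216 with KPT-330, a change of -0.83 ± 0.05 (adjusted p = 3.05e-08). The processed copy ATP5EP2, at 0.67 to 2.06 CPM over the DMSO and KPT-330 libraries, had the lowest fold change of the complex, -0.87 ± 0.29 (adjusted p = 0.0237). That call was lost in 4 of the 22 alternatives, 3 of which left out 1 library (-0.72 to -0.69). Among these was the fit without DMSO replicate 3 (-0.71, adjusted p = 0.092). Reads may also be split between the near-identical copies ATP5E and ATP5EP2.

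The genes of the α and β subunits of the F1 head both fell. ATP5A1 (α) had 1179, 1238 and 1270 CPM with DMSO and 824, 822 and 825 with KPT-330, a log2 fold change of -0.58 ± 0.05 (adjusted p = 8.23e-07, edgeR). ATP5B had 2012, 2148 and 2297 CPM with DMSO and 1522, 1479 and 1514 with KPT-330, a change of -0.52 ± 0.06 (adjusted p = 1.82e-05). Neither gene's groups overlap.

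The membrane ring of subunit c is encoded by 3 genes with the same mature product, and each was lower. ATP5G1 fell by 0.68 ± 0.06 on the log2 scale (adjusted p = 8.36e-07), ATP5G3 fell by 0.48 ± 0.05 (adjusted p = 8.53e-06) and ATP5G2 fell by 0.36 ± 0.09 (adjusted p = 0.00341, edgeR). The ATP5G2 call was lost with scaling by library size alone (-0.21, adjusted p = 0.095). The genes of the complex that were not called were ATP5D, ATP5I, ATP5L2, ATP5S and ATP5SL. The δ subunit gene ATP5D had 7.86, 4.77 and 2.76 CPM with DMSO and 6.58, 6.65 and 6.84 with KPT-330, so that the KPT-330 libraries lay within the DMSO range. Its estimate of 0.38 ± 0.31 became -0.33 with a GC correction (adjusted p = 0.0307).

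**Figure D1:**
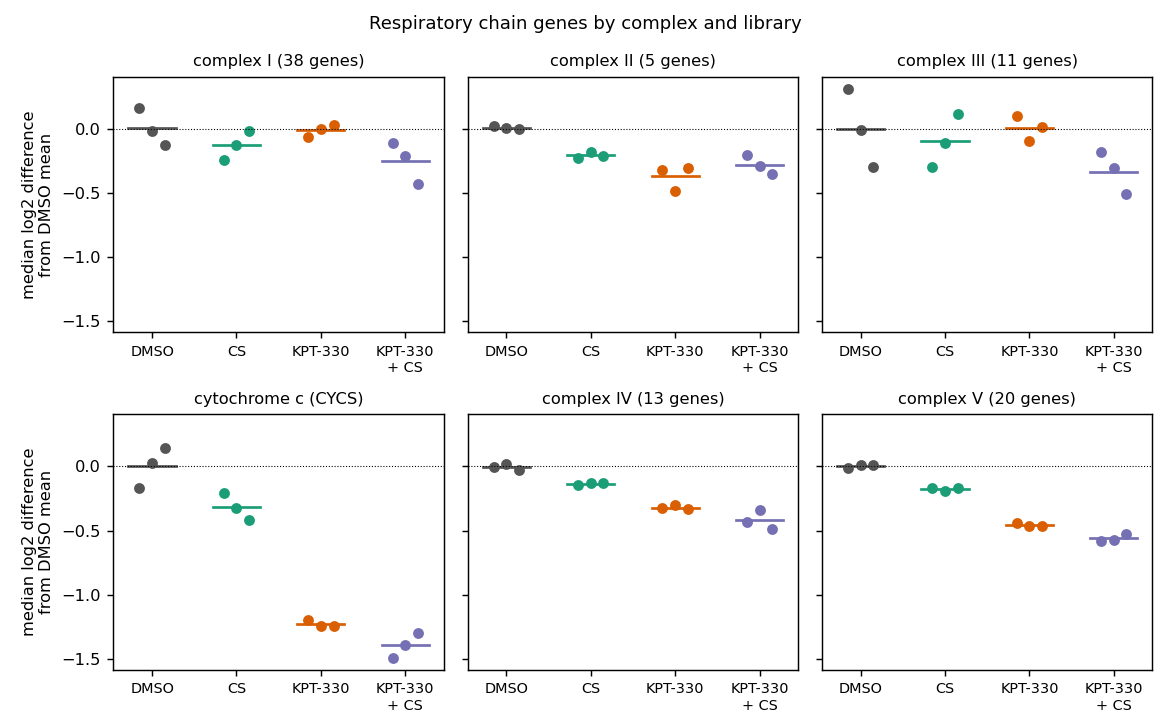
Each point is 1 library, and its height is the median, over the tested genes of a complex, of the log2 difference from the mean of the 3 DMSO libraries. Lines are group means. Complexes IV and V have tight groups (pooled SD 0.04 and 0.02), while the DMSO libraries of complex III run from 0.31 to -0.30.

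Complex II had 4 of 5 entries lower and 1 higher, with a median log2 fold change of -0.37. SDHD is counted there under 2 identifiers. Without the second of them, 3 of 4 genes were lower and 1 higher (median -0.375). SDHB, the iron-sulfur subunit, had 81.6, 79.2 and 80.5 CPM with DMSO and 57.8, 56.9 and 55.9 with KPT-330. Each group is tight and the change was -0.50 ± 0.05 (adjusted p = 1.82e-06, edgeR). The membrane anchor SDHD had 335, 347 and 352 CPM with DMSO and 235, 222 and 235 with KPT-330, a change of -0.58 ± 0.05 (adjusted p = 4.97e-07). The other anchor, SDHC, fell by 0.25 ± 0.06 on the log2 scale (adjusted p = 0.00421), a call lost with library-size scaling (-0.09, adjusted p = 0.13).

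SDHA, the flavoprotein that oxidises succinate, went the other way. It had 83.8, 68.8 and 58.1 CPM with DMSO and 91.0, 97.8 and 98.1 with KPT-330. The KPT-330 libraries are all higher, and the DMSO libraries spread widely. The log2 fold change was 0.45 ± 0.12 (adjusted p = 0.00708, edgeR), and with a GC correction it was 0.33 (adjusted p = 0.0616). SDHA also has near-identical pseudogene copies, so its count is uncertain. Within 1 heterodimeric enzyme head, SDHA and SDHB therefore had estimates of opposite sign, in the uncorrected and the GC-corrected analysis.

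In complex IV, 8 of 13 tested genes were lower and 0 higher, with a median of -0.32. An unadjusted p under 0.05 for a higher level was reached by 0 (edgeR), and DESeq2 also called 8. COX5A, a nuclear subunit on the matrix side, had 130, 146 and 151 CPM with DMSO and 84.1, 90.2 and 86.6 with KPT-330. The groups are apart, with a log2 fold change of -0.71 ± 0.06 (adjusted p = 1.47e-06, edgeR). COX7B had the lowest estimate of the complex, -0.75 ± 0.08 (adjusted p = 5.79e-06), and COX7A2L, known for joining complexes III and IV into supercomplexes, was close to it at -0.74 ± 0.05 (adjusted p = 1.46e-07). COX6C was lower by a smaller amount, -0.32 ± 0.07 (adjusted p = 0.00202).

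COX4I1, the ubiquitous form of subunit 4, was not called: it had 639, 554 and 480 CPM with DMSO and 510, 473 and 494 with KPT-330, and these ranges overlap (-0.18 ± 0.10, adjusted p = 0.164). NDUFA4, once counted to complex I and now to complex IV, fell by only 0.20 ± 0.07 on the log2 scale (adjusted p = 0.0239). That call was lost without DMSO replicate 2 (adjusted p = 0.078), DMSO replicate 3 (0.087) or any KPT-330 replicate (0.056 to 0.068), with estimates from -0.15 to -0.21. It was also lost with scaling by library size alone (-0.04, adjusted p = 0.524), and with the GC correction the estimate was -0.10 (adjusted p = 0.0031).

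Complex III split into 2 sets. UQCRB, UQCRFS1, UQCRH, UQCRC2 and the retrocopy UQCRHL were lower (5 of 11), 0 were higher, and the median of the complex was -0.05. An unadjusted p under 0.05 for a higher level was reached by 0 (edgeR), and DESeq2 also called 5. UQCRFS1, the Rieske iron-sulfur protein, had 62.3, 69.1 and 73.8 CPM with DMSO and 47.5, 44.7 and 45.8 with KPT-330, with no overlap and a log2 fold change of -0.57 ± 0.07 (adjusted p = 2.33e-05, edgeR). UQCRB was lowest at -0.60 ± 0.09 (adjusted p = 8.16e-05) and UQCRC2 the least changed of the called genes at -0.33 ± 0.07 (adjusted p = 0.000986).

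The other 6 entries of complex III were not called, and their DMSO libraries spread widely. CYC1, which holds the cytochrome c1 haem, had 61.2, 42.3 and 30.6 CPM with DMSO and 46.1, 40.2 and 43.4 with KPT-330 (-0.05 ± 0.24, adjusted p = 0.878). The core protein UQCRC1 had 162, 132 and 103 CPM with DMSO and 141, 127 and 138 with KPT-330 (0.03 ± 0.16, adjusted p = 0.884). With a GC correction UQCRC1 was lower (-0.43, adjusted p = 4.41e-08).

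Of the 38 entries of complex I, 14 were lower and 2 higher, and the median log2 fold change was 0.00. By module, 3 of 11 entries of the NADH-oxidising N module were lower and 3 of 5 of the ubiquinone-binding Q module. In the proton-pumping P module 8 of 22 were lower, and the 2 higher genes also lie there. These shares are 27.3%, 60% and 36.4%, beside 23.8% of all tested genes, so the N module is near that background. The N module counts NDUFA7 under 2 identifiers, and the Q module is small. NDUFS1, the largest iron-sulfur subunit of the N module, had 219, 248 and 265 CPM with DMSO and 170, 167 and 166 with KPT-330, a log2 fold change of -0.54 ± 0.07 (adjusted p = 2.54e-05, edgeR) without overlap. The lowest in the complex was NDUFB3, at 101, 115 and 126 CPM with DMSO and 70.8, 71.4 and 66.1 with KPT-330 (-0.72 ± 0.09, adjusted p = 3.08e-05).

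NDUFV1, the flavoprotein where NADH docks, was not called. It had 103, 69.7 and 50.1 CPM with DMSO and 88.2, 87.9 and 94.95 with KPT-330, inside the DMSO range (0.28 ± 0.25, adjusted p = 0.367). NDUFB4 and NDUFB2 had the smallest changes of the genes above 50 CPM, -0.01 ± 0.16 and 0.03 ± 0.09 (adjusted p = 0.957 and 0.801). The 2 genes called higher were NDUFA13, also known as GRIM-19, and NDUFB9. NDUFA13 had 94.4, 57.9 and 36.6 CPM with DMSO and 116, 109 and 120 with KPT-330, a log2 fold change of 0.86 ± 0.33 (adjusted p = 0.043). Its call was lost in 13 of the alternatives, such as without DMSO replicate 3 (0.60, adjusted p = 0.211) or with a GC correction (0.24, adjusted p = 0.315). The call was also lost without DMSO replicate 2, CS replicate 2, any 1 KPT-330 replicate or replicate 2 of both drugs, at adjusted p of 0.057 to 0.12. Its gene region overlaps YJEFN3, and the libraries do not mark the strand. NDUFB9 had 140, 132 and 132 CPM with DMSO and 148, 158 and 160 with KPT-330 (0.21 ± 0.06, adjusted p = 0.00754), and with a length correction the estimate was -0.02 (adjusted p = 0.80).

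**Figure D2:**
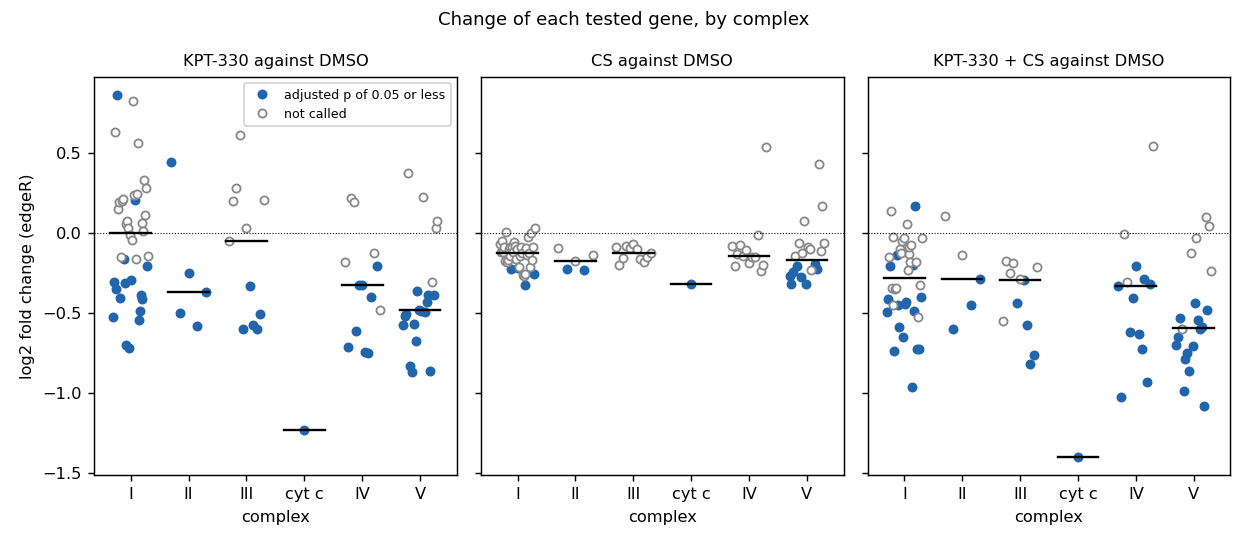
Each circle is 1 tested gene. Filled circles have an adjusted p of 0.05 or less (edgeR), open circles do not, and bars are complex medians. With KPT-330 the medians run from 0.00 in complex I to -0.48 in complex V, with CYCS at -1.23. The CS estimates lie close below 0, and the estimates for both drugs lie mostly at or below those for KPT-330.

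The split between the complexes moved with GC content. With KPT-330, 27 of the 34 genes under 45% GC were lower and 1 higher (median -0.44), 18 of 31 between 45% and 55% were lower and 1 higher (-0.31), and 2 of 23 over 55% were lower and 1 higher (0.19). All tested genes in the same bins had medians of -0.16, 0.01 and 0.45. Of all tested genes under 45% GC, 37.0% were lower and 14.3% higher. Between 45% and 55% these shares were 23.8% and 25.3%, and over 55% they were 5.32% and 40.1%. Of the respiratory chain genes over 55% GC, 8.70% were lower and 4.35% higher. Across the 88 genes, the KPT-330 log2 fold change and GC content had Pearson's r = 0.61 and Spearman's rho = 0.56, and over 18885 tested genes with a GC value r was 0.35. Genes of 1 library share its depth and base composition, so these are descriptions.

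With the GC trend of each library removed, 57 of the 88 genes were lower and 1 higher (median -0.32, beside -0.09 over all tested genes). Complex I then had 19 lower and 1 higher (-0.23), and complex III had 7 lower and 0 higher (-0.43). Complexes II, IV and V had medians of -0.41, -0.30 and -0.47. Under that correction the 5 medians lay nearer to each other, and complex I still had the smallest. Of the 47 lower calls, 46 were also made with the correction. Here and below, the shares of all tested genes come from the analysis without this correction. They are no background for counts made with it. With scaling by library size alone, the median of all tested genes was 0.20 in place of 0.04, complex I had a median of 0.16 and complex V of -0.32. Relative to all genes, complex V was lower under each of these scalings. Because the KPT-330 libraries all had a high GC slope and the DMSO slopes were spread, the drug and the GC trend of its libraries cannot be told apart for GC-rich members.

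**Figure D3:**
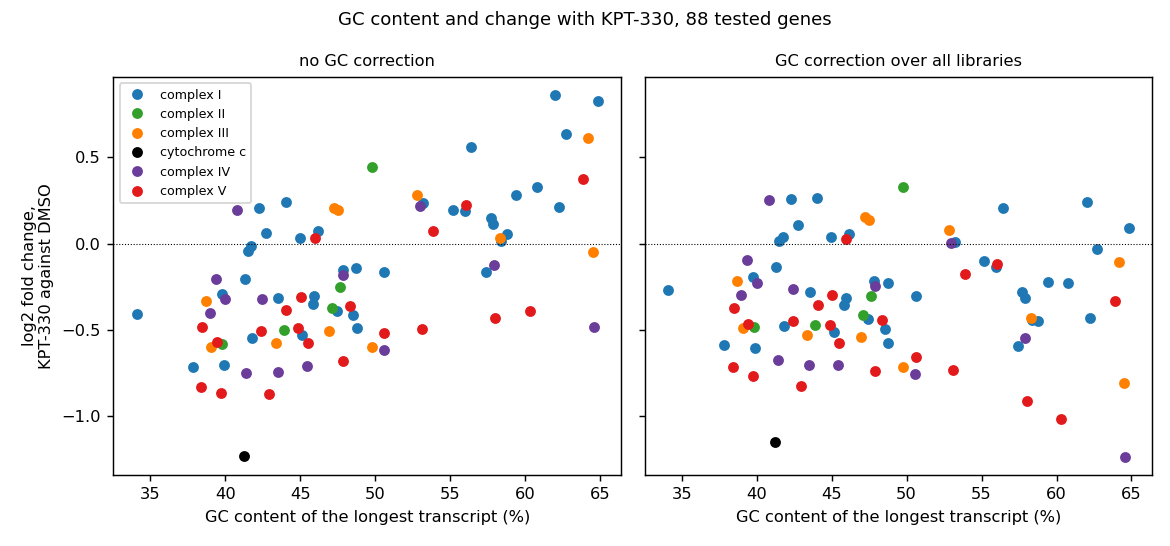
Each point is 1 of the 88 tested genes, with GC content of its longest reference transcript on the horizontal axis and its KPT-330 log2 fold change on the vertical axis, coloured by complex. Without a correction the points rise with GC content (r = 0.61). With the GC trend of each library removed, r is -0.01.

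With CS alone, 16 of the 88 genes were lower and 0 higher, and the other 72 did not pass the test, where 8.88% of all tested genes were called, 5.13% lower and 3.76% higher. An unadjusted p under 0.05 was reached by 33 genes with a lower and 1 with a higher level (edgeR), and DESeq2 called 13. No share of all tested genes is given at that unadjusted threshold. The median was -0.14, beside -0.01 over all tested genes, and 82 of 88 estimates were below 0. Every CS library was below every DMSO library in 30 genes and above in 1, beside 12% and 10.7% of all tested genes.

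The calls made for CS were 9 of 20 genes in complex V, 4 of 38 in complex I, 2 of 5 in complex II and CYCS. In complexes III and IV 0 genes were called, with 2 and 5 at an unadjusted p under 0.05 and 0 by DESeq2. ATP5G3 had 332, 310 and 304 CPM with DMSO and 241, 254 and 265 with CS, groups that are well apart (-0.32 ± 0.05, adjusted p = 0.00272, edgeR). ATP5B had 1799, 1743 and 1642 CPM with CS, all below DMSO (-0.32 ± 0.06, adjusted p = 0.00722). NDUFS1 had 205, 196 and 183 CPM with CS, also below the 3 DMSO values (-0.33 ± 0.07, adjusted p = 0.00976). SDHB had 68.8, 68.6 and 69.3 CPM with CS, apart from DMSO by far more than the spread within either group (-0.22 ± 0.05, adjusted p = 0.00976). CYCS had 957, 882 and 823 CPM with CS (-0.32 ± 0.08, adjusted p = 0.0263), close below the lowest DMSO library.

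None of the 16 CS calls held in all 22 alternatives. When the DMSO and CS libraries were fitted alone, 0 genes were called and 19 had an unadjusted p under 0.05, all lower (edgeR, smallest adjusted p = 0.0717). The shares of all tested genes given for CS come from the fit of all 12 libraries. They are no background for this fit. Leaving out 1 library gave 5 to 26 calls. The CS medians of complex V were -0.17, -0.19 and -0.17 in the 3 libraries, beyond the spread of that median between libraries (pooled SD 0.02). That SD holds for 1 scaling and leaves out the error of single genes. The median moved by more than this SD under other scalings, as given below. No single-gene call of the complex held in all alternatives.

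With both drugs, 49 of the 88 genes were lower and 1 higher than with DMSO, where 55.5% of all tested genes were called, 26.2% lower and 29.3% higher. The median was -0.37, beside 0.04 over all tested genes. Every library with both drugs lay below every DMSO library in 48 genes and above in 1, beside 25.9% and 30.7% of all tested genes. Of the lower calls, 38 held in all 22 alternatives. Complex V was lowest with 14 of 20 genes lower (median -0.59), followed by complex IV with 10 of 13 (-0.33), complex III with 5 of 11 (-0.29), complex II with 3 of 5 (-0.29) and complex I with 16 of 38 (-0.28). Without the second SDHD identifier, complex II had 2 of 4 genes lower (-0.29). In complexes II to V 0 genes were higher, also at an unadjusted p under 0.05 (edgeR). With the GC correction 70 genes were lower and 0 higher, with medians of -0.45 in complex I and -0.77 in complex V, beside -0.11 over all tested genes. The shares of all tested genes given above are no background for these 70 calls.

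CYCS had 391, 421 and 448 CPM with both drugs, a log2 fold change against DMSO of -1.40 ± 0.08 (adjusted p = 1.11e-08, edgeR). ATP5L had 120, 115 and 114 CPM, a change of -1.08 ± 0.05 (adjusted p = 1.89e-09), the lowest of complex V. COX5A had 69.1, 66.7 and 73.8 CPM, which is 50.9% below DMSO (-1.03 ± 0.06, adjusted p = 2.26e-08). NDUFS1 had 121, 124 and 131 CPM, 48.7% below DMSO (-0.96 ± 0.07, adjusted p = 7.08e-08). In these 4 genes the libraries with both drugs are the lowest of the 12.

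UQCRH, the hinge protein of complex III, was the lowest of that complex (-0.82 ± 0.07, adjusted p = 6.17e-07, edgeR), although reads may be split with its retrocopy UQCRHL. SDHB was the lowest of complex II at 53.5, 54.3 and 51.3 CPM (-0.60 ± 0.05, adjusted p = 1.55e-07). COX8A had 47.0, 33.1 and 23.3 CPM with DMSO and 22.0, 18.6 and 13.8 with both drugs, groups that nearly touch (-0.93 ± 0.23, adjusted p = 0.00389). COX4I1 was lower with both drugs (-0.33 ± 0.10, adjusted p = 0.0143), a call lost without DMSO replicate 1 (-0.23, adjusted p = 0.067) or without replicate 3 of both drugs (-0.26, adjusted p = 0.06). That call was also lost with library size alone (-0.15, adjusted p = 0.323), with the compared groups alone (-0.30, adjusted p = 0.0782) and with the GC correction within groups (-0.33, adjusted p = 0.0504). The 1 higher gene, NDUFS4, had 40.2, 41.5 and 37.0 CPM with DMSO and 45.7, 43.8 and 43.7 with both drugs (0.17 ± 0.07, adjusted p = 0.0419). Its call was lost in 16 alternatives, among them 8 that left out 1 library (0.14 to 0.18), and the estimate was -0.08 with a length correction.

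**Figure D4:**
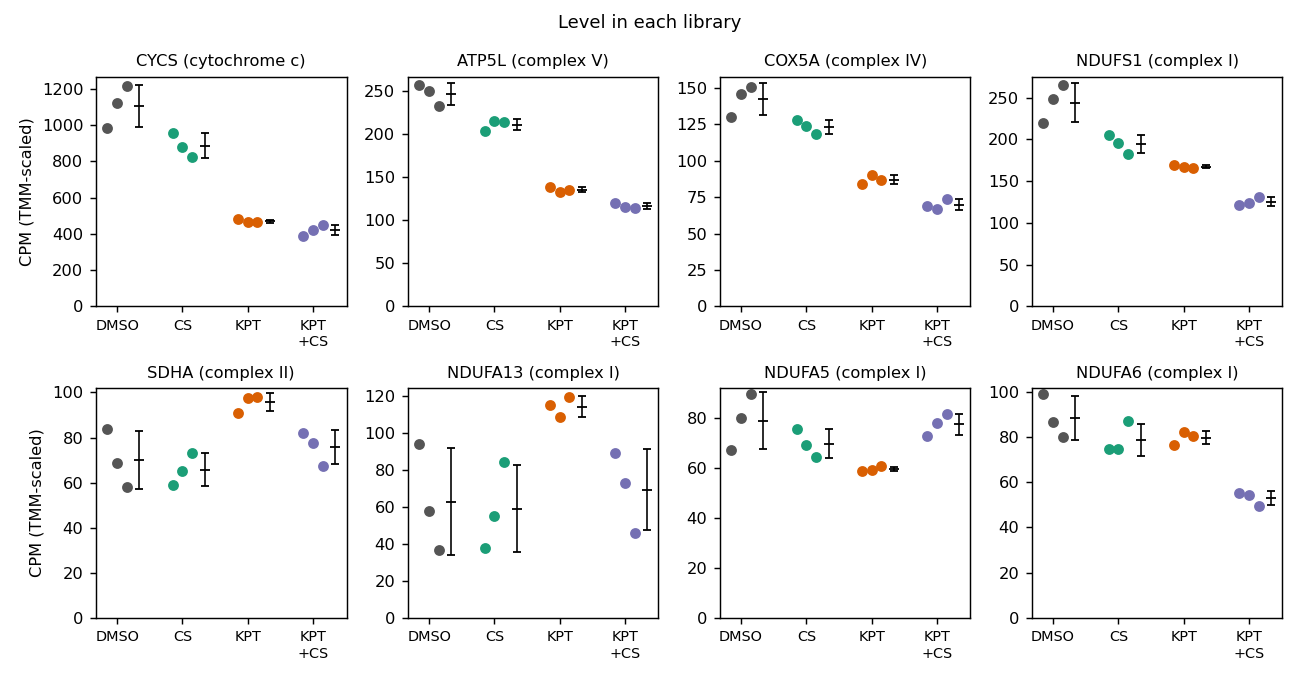
TMM-scaled CPM of 8 genes in each library (coloured points), with the mean and SD of each group's 3 libraries in black beside them. CYCS, ATP5L, COX5A and NDUFS1 step down from DMSO to both drugs, SDHA and NDUFA13 are highest with KPT-330, and NDUFA5 and NDUFA6 change in opposite directions between KPT-330 and both drugs.

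When both drugs were compared with KPT-330 alone, 29 genes were lower and 7 higher, where 37.6% of all tested genes were called, 17.9% lower and 19.7% higher. Every library was lower in 53 genes and higher in 11, beside 29.1% and 28.1% of all tested genes. Complex I had 13 lower and 4 higher (median -0.19), complex III 4 lower and 0 higher (-0.32), and complex V 8 lower and 1 higher (-0.15). Of these 36 calls 8 held in all 22 alternatives, among them COX5A, NDUFA6, NDUFB8, NDUFB9 and NDUFS1, which were lower, and NDUFA5 and NDUFA4L2, which were higher. Leaving out 1 library gave 17 to 40 calls. The differences moved with GC content (Pearson's r = -0.51 over the 88 genes, a description), and the 23 genes over 55% GC had a median of -0.61, beside -0.30 over all tested genes of that range. The GC correction gave 39 lower and 4 higher genes, where 24 of the 29 lower and 3 of the 7 higher calls were kept. Here too the shares above are no background for the corrected counts.

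NDUFS1 was lower than with KPT-330 by 0.42 ± 0.07 on the log2 scale (adjusted p = 0.00038, edgeR), and COX5A by 0.32 ± 0.06 (adjusted p = 0.00188). NDUFA6, an accessory subunit of the N module, had 76.4, 82.2 and 80.3 CPM with KPT-330 and 55, 54.3 and 49.6 with both drugs, with no overlap (-0.59 ± 0.08, adjusted p = 0.000138). NDUFA5, an accessory subunit of the Q module, had 58.7, 59.2 and 60.5 CPM with KPT-330 and 72.8, 77.8 and 81.4 with both drugs, inside the DMSO range of 67.1 to 89.5 (0.38 ± 0.09, adjusted p = 0.00556). Subunits of 1 complex thus went in both directions when CS was added. NDUFA4L2, a low-abundance relative of NDUFA4, had 1.45, 1.31 and 1.63 CPM with KPT-330 and 3.64, 3.20 and 2.12 with both drugs (1.02 ± 0.27, adjusted p = 0.00882). CYCS did not pass the test in this comparison (-0.17 ± 0.08, adjusted p = 0.12).

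Among the subunit c genes, ATP5G1 and ATP5G3 were lower again (-0.19 ± 0.06 and -0.22 ± 0.05, adjusted p = 0.0203 and 0.00486), while ATP5G2 was higher (0.24 ± 0.09, adjusted p = 0.045). ATP5G2 had 174, 152 and 167 CPM with KPT-330 and 192, 200 and 188 with both drugs, against 234, 218 and 183 with DMSO. The ATP5G2 call was lost in 12 alternatives, 8 of which left out 1 library (0.18 to 0.27). The ATP5G1 call was lost without KPT-330 replicate 1 (-0.14, adjusted p = 0.10), KPT-330 replicate 3 or replicate 3 of both drugs.

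Against CS alone, both drugs together gave 38 lower genes and 1 higher, where 47.8% of all tested genes were called, 21.7% lower and 26.1% higher. Every library with both drugs was below every CS library in 42 genes and above in 1, beside 24.5% and 29.6% of all tested genes. CS compared with KPT-330 gave 7 lower and 41 higher, where 42.8% of all tested genes were called, 22.6% lower and 20.2% higher. In the first of these, ATP5L fell by 0.86 ± 0.05 on the log2 scale (adjusted p = 2.32e-08), COX5A by 0.82 ± 0.06 (adjusted p = 3.02e-07) and NDUFS1 by 0.64 ± 0.07 (adjusted p = 5.38e-06, edgeR). These comparisons share libraries with those against DMSO. With the GC correction, 4 of the 7 lower and 39 of the 41 higher calls of CS against KPT-330 were kept.

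The interaction term asks whether CS had a different effect in the presence of KPT-330 than in its absence. It was called for 8 of 88 genes, 7 higher and 1 lower, where 14.7% of all tested genes were called, 8.04% higher and 6.62% lower. The share of respiratory chain genes is near or under that background. SDHD (0.36 ± 0.07, adjusted p = 0.00313, edgeR) and NDUFA5 (0.56 ± 0.13, adjusted p = 0.0121) kept their call in all 21 alternatives. The 1 lower gene was NDUFA6 (-0.42 ± 0.12, adjusted p = 0.0297). The GC correction gave 10 higher and 6 lower, counts for which the shares above are no background.

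Other genes of the pathway were read from lists, beside shares over all tested genes of 23.8% lower and 24.7% higher with KPT-330, 5.13% and 3.76% with CS, and 26.2% and 29.3% with both drugs. Of 14 TCA cycle genes, 9 were lower with KPT-330, 6 with CS and 11 with both drugs (64.3%, 42.9% and 78.6%; 9, 4 and 13 genes by DESeq2), and 0 were higher in any of the 3, also at an unadjusted p under 0.05 or by DESeq2. Library size alone gave 5 lower and 1 higher with KPT-330, the GC correction 9 lower and 1 higher with CS, and the length correction 1 lower with CS. IDH3A, a catalytic subunit of isocitrate dehydrogenase, had 164, 175 and 177 CPM with DMSO, 129, 123 and 124 with CS, 99.6, 93.4 and 95.7 with KPT-330 and 77.3, 80.1 and 81.7 with both. Its 4 groups do not overlap, and its log2 fold changes against DMSO were -0.84 ± 0.05, -0.46 ± 0.05 and -1.11 ± 0.05 for KPT-330, CS and both (adjusted p = 3.89e-08, 0.000151 and 1.41e-09, edgeR). Of 7 carriers and channels, 5, 3 and 5 were lower with KPT-330, CS and both (edgeR and DESeq2), and 0 were higher, with 1 at an unadjusted p under 0.05 for KPT-330. Library size alone called 1 carrier higher with KPT-330, and the GC correction 1 with CS. SLC25A5, an ADP/ATP carrier that exports the ATP made by complex V, had 485, 469 and 459 CPM with DMSO, 212, 205 and 211 with KPT-330 and 162, 159 and 154 with both drugs. It was lower by 1.17 ± 0.05 and 1.57 ± 0.05 on the log2 scale (adjusted p = 1.25e-09 and 3.59e-11).

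Of 44 tested assembly factors, 17 (38.6%) were lower and 5 (11.4%) higher with KPT-330, beside 23.8% and 24.7% of all tested genes, 0 were called with CS (10 lower at an unadjusted p under 0.05, 0 by DESeq2), and 18 (40.9%) were lower and 3 (6.82%) higher with both drugs, beside 26.2% and 29.3%. With library size alone the KPT-330 counts were 7 lower and 10 higher, and with the GC correction 25 lower and 4 higher. The GC correction called 13 lower and 1 higher with CS, and library size alone 9 lower and 10 higher with both drugs. NDUFAF5, needed to assemble complex I, fell by 0.59 ± 0.07 with KPT-330 (adjusted p = 2.71e-05) and by 1.03 ± 0.07 with both (adjusted p = 8.59e-08) on the log2 scale. ACAD9, another complex I assembly factor, was higher with KPT-330 (0.42 ± 0.09, adjusted p = 0.00131), a call lost with the GC correction (0.05, adjusted p = 0.36). Of 9 genes of ubiquinone (coenzyme Q) synthesis, 5 (55.6%) were lower with KPT-330, 0 with CS (2 at an unadjusted p under 0.05, 0 by DESeq2) and 4 (44.4%) with both, where COQ6 was higher. Library size alone gave 3 higher with KPT-330, and the GC correction 3 lower with CS and 8 lower with both drugs. Of 7 subunits and partners that the name rule leaves out, 5, 4 and 6 were lower (5, 3 and 6 by DESeq2) and 0 higher, also at an unadjusted p under 0.05, among them NDUFAB1, the acyl carrier subunit of complex I, at -0.61 ± 0.07, -0.35 ± 0.07 and -0.74 ± 0.07 (adjusted p = 1.38e-05, 0.00878 and 1.34e-06, edgeR). The CS call of NDUFAB1 was lost without CS replicate 3 (-0.31, adjusted p = 0.052) and with the compared groups alone (-0.32, adjusted p = 0.07).

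The 13 subunits encoded by mitochondrial DNA were called in both directions. With KPT-330, 6 (46.2%) were lower and 0 higher (median -0.15), where 23.8% of all tested genes were lower. With CS 0 were lower and 2 (15.4%) higher (0.13), beside 3.76% higher of all tested genes, and with both drugs 2 were lower and 2 higher (-0.02), beside 26.2% and 29.3%. DESeq2 gave the same counts, and at an unadjusted p under 0.05 there were 0 higher with KPT-330 and 0 lower with CS. With library size alone the medians were 0.01, 0.20 and 0.17, so the sign of the median for KPT-330 and for both drugs depends on the scaling. The counts also moved with library size alone, to 3 lower and 2 higher with KPT-330. They were 0 lower and 6 higher with CS, and 0 lower and 7 higher with both drugs. The KPT-330 median of all tested genes also rose under that scaling, as given above. With the GC correction, 8 were higher with CS, and 7 were lower and 4 higher with both drugs. The length correction gave 7 lower with KPT-330, 1 higher with CS, and 5 lower and 0 higher with both drugs. MT-CO2, a core subunit of complex IV, had 7502, 8268 and 8970 CPM with DMSO, 11440, 10640 and 10180 with CS and 10750, 10970 and 11990 with both drugs. The last 2 groups lie above DMSO, at log2 fold changes of 0.38 ± 0.07 and 0.45 ± 0.07 (adjusted p = 0.00643 and 0.000162, edgeR). The CS call was lost with the compared groups alone (0.41, adjusted p = 0.062), and the call with both drugs with the length correction (0.20, adjusted p = 0.068). MT-ND4, a core subunit of complex I, was lower with KPT-330 (-0.43 ± 0.07, adjusted p = 0.000273). The difference between the nuclear and mitochondrial lists was not tested, and MT-ATP6 overlaps MT-ATP8 and MT-ND4 overlaps MT-ND4L, so their counts are not independent.

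Of 15 tested regulators of respiratory gene expression, 4 (26.7%) were lower with KPT-330, near the 23.8% of all tested genes. With CS 2 (13.3%) were lower, beside 5.13%, and with both drugs 10 (66.7%) were lower and 1 higher, beside 26.2% and 29.3%. Library size alone gave 3 lower and 3 higher with KPT-330 and 6 lower and 2 higher with both drugs. The GC correction gave 11 lower and 1 higher with KPT-330 and 6 lower with CS. PPARGC1B, a PGC-1 coactivator, had 38.3, 41.1 and 42.3 CPM with DMSO, 24.2, 25.1 and 24.6 with KPT-330 and 16.3, 14.9 and 16.6 with both drugs. It was lower by 0.72 ± 0.06 and 1.35 ± 0.07 on the log2 scale (adjusted p = 1.39e-06 and 2.3e-09, edgeR). With both drugs, the related coactivator PPRC1 fell by 0.90 ± 0.10 (adjusted p = 5.8e-06), NRF1 by 0.63 ± 0.07 (adjusted p = 7.94e-06) and TFAM, which packages mitochondrial DNA, by 0.38 ± 0.06 (adjusted p = 0.000193). TFAM was also lower with KPT-330 alone (-0.35, adjusted p = 0.000587, edgeR). PPRC1 and NRF1 were not called there (0.005 and -0.13, adjusted p = 0.973 and 0.168). PPARGC1A was the 1 higher regulator, at under 1 CPM in each library (0.18, 0.10 and 0.05 CPM with DMSO and 0.42, 0.53 and 0.92 with both drugs).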

How the data were processed

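The authors deposited raw gene counts on Ensembl version 78 for 12 libraries. Per the series design text, reads were aligned to hg38 with STAR in a modified MAP-RSeq workflow, and per the labels' protocols RNA was extracted with a kit for fixed tissue and made into unstranded poly(A) libraries. How reads were counted, with which strand setting and what was done with multiply mapped reads is not given in the sources used here. Some overlapping genes appear to receive the same reads: 38 of the 94 genes overlap another protein-coding gene with at least 1000 reads.

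Genes were matched by symbol. 107 protein-coding entries matched, and 13 of them, off the primary chromosomes, had 0 reads and were left out. The members and gene lists were chosen with earlier results of these data known. Counts of all 12 libraries were filtered with filterByExpr, scaled by TMM and fitted by group with edgeR 4.0.16 (R 4.3.3), quasi-likelihood F-test, robust, two-sided, 8 residual degrees of freedom, with Benjamini-Hochberg adjustment over 19460 genes and a threshold of 0.05. Each SE was computed from the estimate and its F statistic (estimate over the root of F). The test was first tested on simulated data. CPM are TMM-scaled, and values per kb use the authors' deposited exonic gene lengths.

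Alternatives were no filter, a stricter filter, DESeq2 size factors, library size alone, DESeq2 1.42.0, the compared groups alone, the replicate number as a block, GC and length corrections (lowess, span 0.3), leaving out each library, and, chosen after seeing the data, a GC correction within groups. GC content came from the longest GENCODE transcript of each gene. Named genes were core or alternative subunits listed by symbol, the lowest and highest called gene per complex and comparison, the smallest changes of genes above 50 CPM, and the called interaction genes with the smallest adjusted p. Genes named outside that rule (such as ATP5E, COX7A2L and NDUFB8, and the examples from the pathway lists) were chosen after their values were seen. Counts cover all members, and the values of 1 member are not reported here. An interval or floor covers counting error only.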

Additional observations from a re-analysis of the deposited data

Results flagged for a closer look

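In 4 genes described here the interaction term was called, for a different effect of CS with and without KPT-330 (edgeR quasi-likelihood test, adjusted over all tested genes). They are among 8 calls in 88 genes, beside 14.7% of all tested genes, so the share is near or under that background. The estimates are for CS with KPT-330 minus CS without it. NDUFA5 had a log2 difference of 0.56 (adjusted p = 0.0121, 1.02e-07 to 0.0375 over the alternatives): CS alone gave -0.18 and CS on top of KPT-330 gave 0.38. SDHD had a difference of 0.36 (adjusted p = 0.00313, 0.000391 to 0.0324), from -0.23 to 0.13. SDHC had a difference of 0.29 (adjusted p = 0.0391, 0.000338 to 0.114), from -0.17 to 0.12, and that call was lost in 14 alternatives. NDUFA6 had a difference of -0.42 (adjusted p = 0.0297, 0.00316 to 0.0748), from -0.17 to -0.59, and that call was lost in 7. In NDUFA5 and SDHC the estimate for CS was below 0 in the absence of KPT-330 and above 0 in its presence in all alternatives, although in the reported analysis neither SDHC estimate passed its own test, nor did that of NDUFA5 for CS alone (adjusted p = 0.265). For SDHD the estimate in the presence of KPT-330 was -0.020 with the GC correction, and its call was lost in 15 of 22 alternatives.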

How the results depend on the processing

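The number of genes called stayed within 1.5 times the reported count in all 22 alternatives for KPT-330 against DMSO (46 to 59 with 1 library left out), both drugs against DMSO (47 to 51) and CS against KPT-330 (36 to 52). For both drugs against CS it was 65 with the GC correction (35 to 43 with 1 library left out), and for both drugs against KPT-330 it was 21 without a filter (17 to 40). For CS against DMSO it was 0 with the compared groups alone, 33 with the GC correction, 31 with that correction within groups and 10 with the length correction (5 to 26 with 1 library left out). The interaction gave 5 calls without a filter, 4 with DESeq2 size factors, 4 with DESeq2, 3 with the replicate block, 16 with the GC correction, 32 with it within groups and 5 with the length correction (3 to 13 with 1 library left out).

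Complex medians moved by more than the spread between libraries in these cases, and the cause was not tested. With library size alone, the KPT-330 medians of complexes I, II, IV and V were 0.16, -0.21, -0.16 and -0.32. For CS, complexes II, IV and V were at -0.11, -0.080 and -0.11, and for both drugs complexes I, II, IV and V were at -0.10, -0.10, -0.15 and -0.41. With the GC correction, KPT-330 gave -0.23 in complex I and -0.43 in III, and both drugs gave -0.45, -0.43, -0.46 and -0.77 in I, II, IV and V. With it within groups, both drugs gave -0.57 in V. With the length correction, KPT-330 gave -0.18, -0.52, -0.54 and -0.64 in I, II, IV and V, CS gave -0.20 in V, and both drugs gave -0.44, -0.53, -0.55 and -0.77 in I, II, IV and V. In complex V, DESeq2 size factors gave -0.51 for KPT-330 and -0.62 for both drugs, DESeq2 gave -0.51 and -0.62, and the compared groups alone gave -0.45, -0.14 for CS and -0.56 for both drugs. The stricter filter gave -0.19 for CS and -0.56 for both drugs in V.

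With 1 library left out, the KPT-330 medians ran from -0.13 to 0.10 in complex I, -0.44 to -0.30 in II, -0.25 to 0.20 in III, -0.37 to -0.32 in IV and -0.49 to -0.44 in V. The CS medians ran from -0.22 to -0.06 in I, -0.21 to -0.17 in II, -0.20 to 0.05 in III, -0.14 to -0.13 in IV and -0.20 to -0.16 in V. With both drugs they ran from -0.38 to -0.12, -0.34 to -0.22, -0.42 to -0.26, -0.41 to -0.32 and -0.61 to -0.55.

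Of 336 estimates for named genes (1 per gene and comparison), 99 had another sign in 1 or more alternatives. Of these 274 sign changes, 257 were called in neither analysis, and the other 17 follow. With the GC correction, KPT-330 against DMSO gave -0.33 for ATP5D and -0.43 for UQCRC1, both drugs against KPT-330 gave -0.020 for SDHD, -0.11 for UQCRC2, -0.12 for COX7B and 0.13 for ATP5J2-PTCD1, both drugs against CS gave -0.14 for NDUFA8 and -0.089 for SDHC, CS against KPT-330 gave -0.084 for NDUFA4, 0.33 for UQCRC1 and 0.67 for CYC1, and the interaction gave -0.14 for COX6C. With the length correction, NDUFB9 was at -0.021 with KPT-330, NDUFS4 at -0.078 with both drugs and -0.0066 against CS, and NDUFA8 at -0.19 against CS. With library size alone NDUFA8 was at 0.048 with both drugs.

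Replicate numbers are shared between groups but did not pair the libraries: of 18 same-numbered pairs, 2 had deviations that correlated above 0.1 (range -0.38 to 0.40), and 3 of 12 libraries correlated best with their own number. The replicate block gave 49, 11, 48, 25, 39 and 45 calls for KPT-330, CS and both drugs against DMSO, both against KPT-330, both against CS, and CS against KPT-330. Depth limits the genes at a few CPM or less (ATP5EP2, ATP5L2 and NDUFA4L2) most.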
